A study of Mus musculus with 10 samples.

Results

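Cholesterol synthesis, uptake and export were followed through 27 genes in CD4 T cells that lacked or carried TOX, a nuclear factor of chronically stimulated T cells. The genes were chosen by name from a list covering the enzymes from acetyl-CoA to cholesterol, the sterol sensors, and the genes of sterol transport, export and its control. All 27 were found among the 53656 gene rows of each count table. There were 6 TOX KO libraries and 4 TOX WT libraries, each from SMARTA cells, which carry a transgenic T cell receptor. Naive KO cells (Ly5.1) and WT cells (Ly5.1 and Ly5.2) had been given to B6 mice that bore B16-GP61 melanoma and had received cytoxan (cyclophosphamide). After 11 days they were sorted from the tumour-draining lymph node (tdLN). KO cells were taken as CD4+, Ly5.1+, Ly5.2- and low for PD1, LAG3 and CD39. WT cells were taken as CD4+, Ly5.1+, Ly5.2+ and high for the same 3 proteins. Genotype, congenic marker and sort gate therefore changed together, and their effects on any gene cannot be told apart. How TOX was removed and which libraries came from which animal are not given in the sources used here, so a p-value speaks for the variation among the 10 libraries alone, part of which may be technical.

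Cells make cholesterol by condensing acetyl-CoA into mevalonate, joining isoprene units into squalene, closing squalene into lanosterol, and trimming lanosterol to cholesterol. When sterols are scarce in the endoplasmic reticulum, SCAP carries the SREBP factors to the Golgi, where cleavage releases a fragment that turns on the synthesis genes. When sterols are plentiful, INSIG proteins hold SCAP back, and oxysterols activate the LXR receptors, which turn on the exporters ABCA1 and ABCG1. T cells that are activated and divide are known to raise synthesis and lower export.

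Library totals were 36028980 to 55784453 counts in KO and 31939816 to 45481478 in WT. Levels below are CPM, a gene's counts relative to its TMM-scaled library size, and fold changes are KO over WT on the log2 scale. Tox itself had a lowest, median and highest level of 15.3, 22.1 and 68.0 CPM in KO libraries, against 169.9, 357, 172 and 245 CPM in WT replicates 1 to 4. It was lower in KO (edgeR log2 fold change -2.93 with SE 0.48, adjusted p = 0.010). The T cell receptor complex genes were present throughout, with summed levels of 15402 to 30430 CPM in KO and 8702 to 21293 CPM in WT. The 10 B cell markers summed to 80.1 to 318 CPM in KO, against 2616, 10619, 7071 and 6433 CPM in WT replicates 1 to 4, and 7 of the 10 passed the test as lower in KO. The 7 plasma cell markers summed to 220.4 to 857 CPM in KO, against 823, 1932, 2221 and 5926 CPM in WT, with 2 of the 6 tested lower in KO. The KO sum was mostly Xbp1 (57.8 to 715 CPM) and Irf4 (38.3 to 224 CPM). Both overlapped WT, with edgeR log2 fold changes of 0.69 and 0.013. The 2 called were Jchain and Mzb1. Jchain had 0 to 15.5 CPM in KO and 94.8 to 3921 CPM in WT. Mzb1 had 1.14 to 22.5 CPM in KO and 172 to 1530 CPM in WT. Sdc1 and Prdm1 were also lower in every KO library than in any WT library, but did not pass the test. The 16 myeloid markers summed to 163 to 443 CPM in KO, against 1508, 3443, 2874 and 8420 CPM in WT, with 5 of the 15 tested lower in KO. Markers of CD8 T cells, melanoma and stroma overlapped between KO and WT in their sums. None of those tested was called (2 of 2 CD8 T cell, 1 of 5 melanoma and 2 of 5 stroma markers). The stroma sum was mostly Pecam1, at 163 to 370 CPM in KO and 81.9 to 357 CPM in WT. The 12 proliferation markers summed to 463 to 912 CPM in KO, against 2663, 1225, 1259.9 and 1704 CPM in WT, with 6 lower in KO. Of the B cell markers, Pax5 and Cr2 had 0 counts in at least 3 KO libraries, as did 8 of the myeloid markers, Itgam, Adgre1 and Siglech among them. The part of these differences in the results below was not tested. In bulk samples, fewer cells of a type and less RNA per cell cannot be told apart. WT replicate 1 stood apart, with 2554 of the tested genes at 0 counts, against 594 to 1618 in KO libraries and 145 to 267 in the other WT libraries.

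RefSeq promoter windows (GRCm38.p6, 250 bases before to 50 after a start) were found for 22 of the 27 genes. They are shown for Sc5d, the gene that passed the test below, and for Hmgcs1 and Srebf2, which carry the sterol element core TCACCCC that SREBP sites can hold. Capitals mark TCACCCC or its reverse complement GGGGTGA, and the CCAAT box or its reverse complement ATTGG, a site of the NF-Y factor. No base belonged to both motifs.
Sc5d, chr9:42264251-42264550, minus strand: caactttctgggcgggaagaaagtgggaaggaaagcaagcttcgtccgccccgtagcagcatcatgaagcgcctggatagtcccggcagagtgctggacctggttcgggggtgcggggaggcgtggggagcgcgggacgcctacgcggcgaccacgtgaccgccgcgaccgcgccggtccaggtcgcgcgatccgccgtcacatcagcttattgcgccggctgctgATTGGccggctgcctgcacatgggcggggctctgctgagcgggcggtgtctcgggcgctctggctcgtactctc
Hmgcs1, chr13:119690101-119690400, plus strand: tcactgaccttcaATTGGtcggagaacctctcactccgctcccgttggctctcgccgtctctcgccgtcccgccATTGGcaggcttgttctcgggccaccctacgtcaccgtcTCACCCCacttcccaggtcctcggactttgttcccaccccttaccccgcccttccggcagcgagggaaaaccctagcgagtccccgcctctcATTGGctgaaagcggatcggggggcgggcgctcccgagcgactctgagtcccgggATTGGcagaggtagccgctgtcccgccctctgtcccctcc
Srebf2, chr15:82147019-82147318, plus strand: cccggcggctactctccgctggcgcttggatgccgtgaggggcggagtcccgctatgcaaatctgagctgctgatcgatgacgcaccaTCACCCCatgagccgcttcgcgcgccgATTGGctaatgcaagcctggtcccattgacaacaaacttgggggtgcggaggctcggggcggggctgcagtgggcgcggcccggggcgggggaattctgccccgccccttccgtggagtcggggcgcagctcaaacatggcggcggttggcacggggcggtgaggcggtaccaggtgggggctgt
The exact core was in windows of 3 of the 22 genes (Hmgcs1, Srebf2 and Insig2), and 5.61% of the 27025 genes with a window had it. A CCAAT box was in windows of 18 of the 22, and in 41.1% of all genes with a window. A match describes the letters of the window and is not a measured site.

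Most of the pathway did not pass the test between KO and WT. All 27 genes passed the filter on low counts. At an edgeR adjusted p under 0.05 over 14214 genes, 1 of the 27 was lower in KO, against 2.7% of all genes tested, and 0 were higher, against 0.429% of all genes. At an unadjusted p under 0.05, 4 were lower (Pmvk, Fdps, Sc5d and Insig2; 10.8% of all genes) and 2 were higher (Srebf1 and Scap; 7.15% of all genes). DESeq2 called 4 lower, against 9.53% of the 16783 genes it tested, and 0 higher, against 4.15% of them. Among the 14214 genes of the edgeR test, DESeq2 called 1016 lower and 657 higher. The median log2 fold change of the 27 was -0.39, and that of all genes tested was -0.12. Over all genes tested, 7712 of 14214 had a negative fold change. Of the 18 synthesis genes, 14 had a negative fold change and 4 a positive one, with a median of -0.45, and the positive ones (Mvk, Lss, Tm7sf2 and Dhcr7) turned negative when libraries were scaled to the 8 T cell receptor complex genes, under which the median of all genes fell by 0.80 as well. Of the 5 sterol-sensing genes, 4 had a positive fold change, with a median of 1.54, of which Srebf2 turned negative under that scaling. How the signs differ between steps was not tested.

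**Figure D1:**
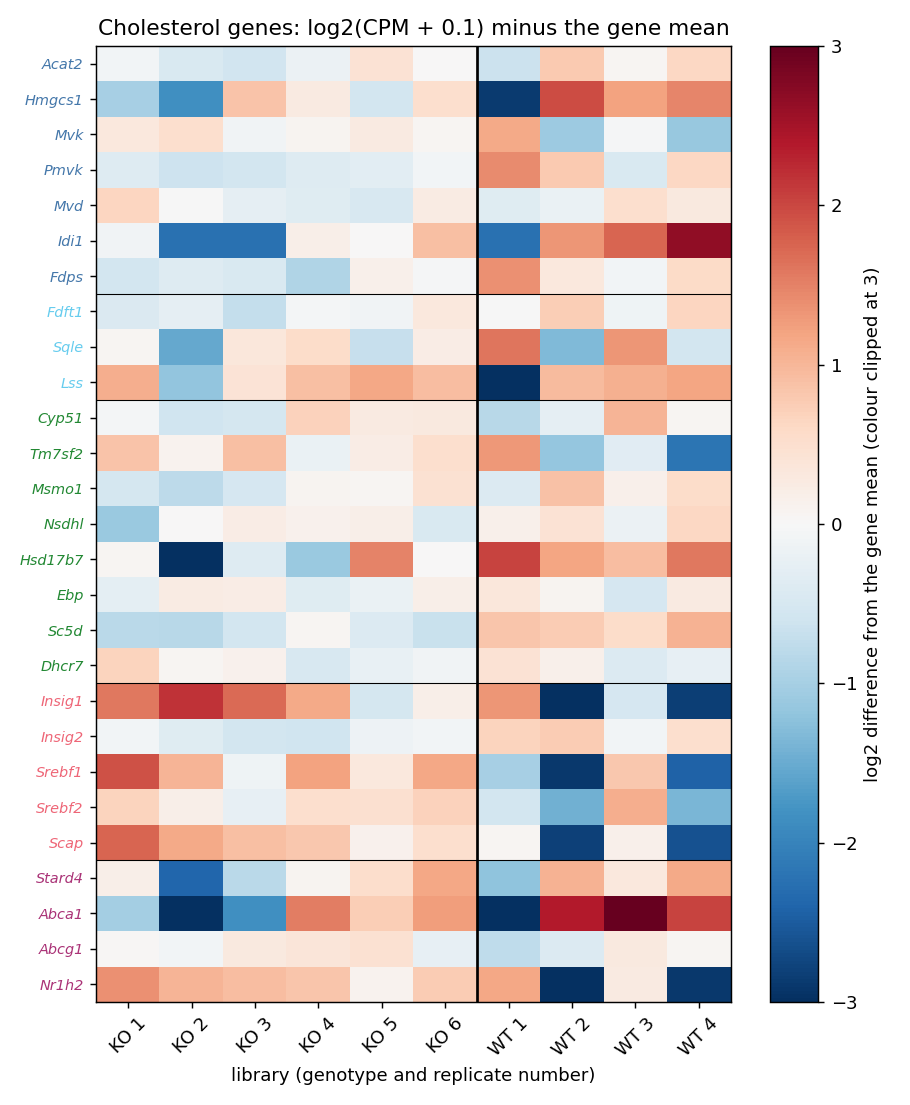
Level of each of the 27 genes (rows, ordered by role) in each library (columns, KO left of WT), as log2 of CPM plus 0.1, minus the gene's mean over libraries. Sc5d is lower in every KO library than in any WT library, whereas Srebf1, Scap and Nr1h2 are lowest in WT replicates 2 and 4.

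**Figure D2:**
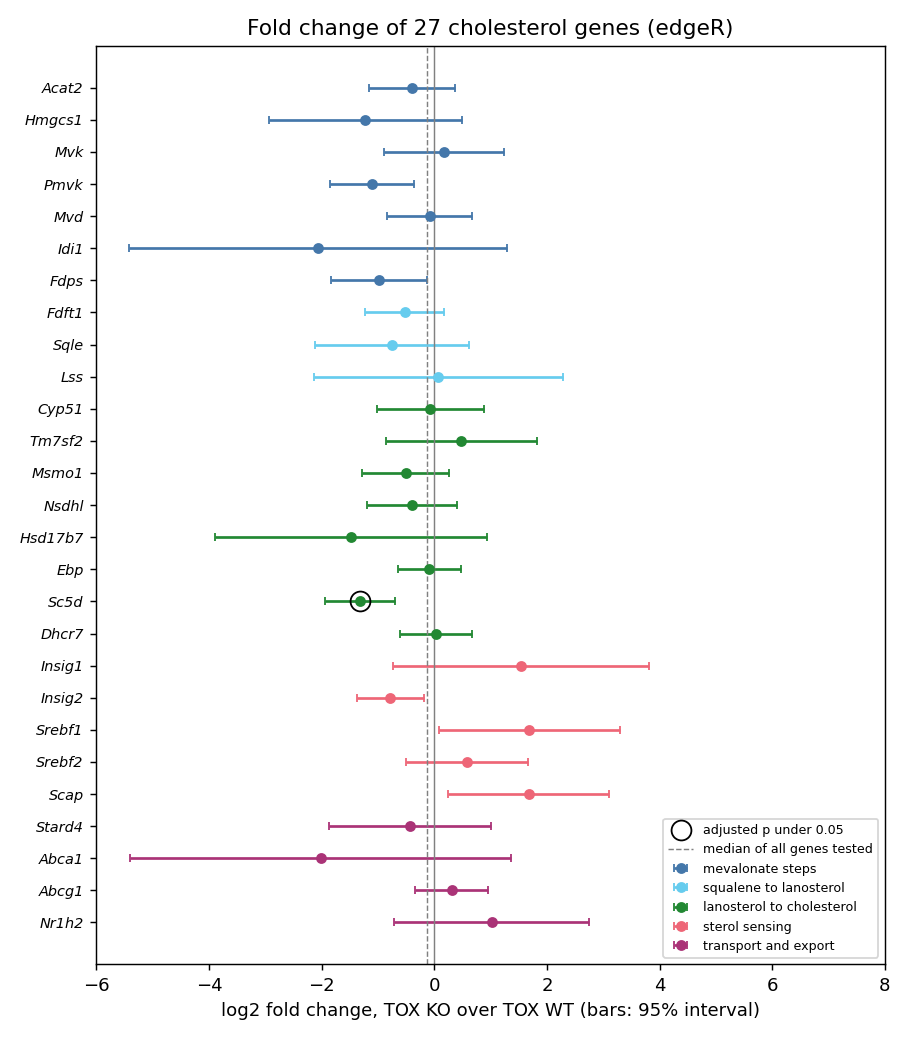
edgeR log2 fold change of KO over WT for the 27 genes, with bars for the 95% interval, colours for the role, and a dashed line at the median of all genes tested (-0.12). Sc5d, circled, is the gene with an adjusted p under 0.05, and the intervals of Idi1 and Abca1 are the widest.

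In the mevalonate steps 6 of 7 genes had a negative fold change, with a median of -0.98, and none passed the test. Pmvk, phosphomevalonate kinase (chr3:89454541-89469013, plus strand), had a lowest, median and highest level of 32.3, 37.7 and 46.5 CPM in KO, against 131, 84.8, 36.1 and 75.9 CPM in WT replicates 1 to 4. All KO libraries lay below 3 of the WT libraries, while WT replicate 3 lay within the KO range. The edgeR log2 fold change was -1.11 (SE 0.34, 95% interval -1.86 to -0.37, adjusted p = 0.12). DESeq2 gave -1.09 with an adjusted p of 0.0096, and without WT replicate 3 edgeR gave -1.35 with an adjusted p of 0.026. Pmvk was called in only 1 of the 10 edgeR fits that left out 1 library, and without WT replicate 4 the adjusted p was 0.31. Fdps makes farnesyl diphosphate, from which sterols, dolichol and the prenyl groups of proteins are built. Its lowest, median and highest levels were 9.67, 13.4 and 20.0 CPM in KO, against 46.8, 22.5, 17.2 and 27.1 CPM in WT. All 6 KO libraries were below the WT median, with WT replicate 3 again inside the KO range (edgeR log2 fold change -0.98 with SE 0.38, adjusted p = 0.21; DESeq2 adjusted p = 0.036). A gene model of the authors' annotation on the same strand overlaps 26.7% of the Fdps exon bases, so its count is uncertain.

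Hmgcs1 forms HMG-CoA, the substrate of the rate-limiting step. It had 3.02, 10.4 and 20.1 CPM as lowest, median and highest in KO, against 1.43, 43.4, 25.8 and 31.0 CPM in WT. WT replicates 2 to 4 were above every KO library and WT replicate 1 below all of them, and the fold change did not pass the test (edgeR log2 -1.22 with SE 0.78, adjusted p = 0.44). A gene model on the opposite strand overlaps 12.1% of the Hmgcs1 exon bases, and the counting was without strand. Idi1, which isomerises the isoprene unit, was near the limit of detection, with 0 counts in KO replicates 2 and 3 and in WT replicate 1, where 3 counts would be 0.0637, 0.0554 and 0.0725 CPM. Its median and highest levels were 0.357 and 0.789 CPM in KO, against 1.08, 1.49 and 2.87 CPM in WT replicates 2 to 4 (edgeR log2 fold change -2.07 with SE 1.52, adjusted p = 0.51). All KO libraries lay below these 3 WT libraries, and 25.3% of its transcript 50-mers are shared with other genes. Acat2, which joins acetyl-CoA units, averaged 39.7 ± 10.4 CPM in KO (SD, n = 6) and 52.2 ± 20.8 CPM in WT (SD, n = 4). Acat2 shares 39.1% of its 50-mers, mostly with Acat3, so read pairs that lie wholly in shared stretches may be missing from its count. Mvk, mevalonate kinase, averaged 20.6 ± 3.15 CPM in KO and 18.4 ± 14.7 CPM in WT. Mvd, which makes isopentenyl diphosphate, averaged 28.0 ± 8.78 CPM in KO and 29.7 ± 8.21 CPM in WT. The group means of Mvk and Mvd differed by less than the SD of either group, and those of Acat2 by less than the WT SD and more than the KO SD.

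The 3 genes from squalene to lanosterol did not pass the test. Fdft1, squalene synthase, averaged 33.6 ± 8.25 CPM in KO and 48.5 ± 14.8 CPM in WT (SD, n = 6 and 4). Its edgeR log2 fold change was -0.53 (SE 0.32, adjusted p = 0.41), and Ctsb on the opposite strand overlaps 18.3% of its exons, which counting without strand cannot separate. Sqle, squalene epoxidase, had 5.39, 17.4 and 23.1 CPM as lowest, median and highest in KO, against 48.3, 6.28, 39.5 and 10.7 CPM in WT. WT replicates 1 and 3 lay above all KO libraries and replicates 2 and 4 below the KO median (edgeR log2 fold change -0.76 with SE 0.62, adjusted p = 0.56). Lss, which closes the ring to lanosterol, had 5.80, 25.2 and 29.9 CPM in KO, against 0.0483, 25.8, 28.0 and 30.3 CPM in WT. The first WT value is 2 counts, below the floor of 3 counts, and the other WT libraries lay close to the KO median. Its edgeR log2 fold change was 0.07 (SE 1.00, 95% interval -2.14 to 2.28, adjusted p = 0.98).

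Among the 8 genes from lanosterol to cholesterol, Sc5d fell in KO and the others did not pass the test. Sc5d (chr9:42251595-42264256, minus strand, GRCm38.p6) encodes lathosterol oxidase, which places a double bond in the sterol ring just before the last reduction by DHCR7. It had a lowest, median and highest level of 19.6, 23.1 and 37.0 CPM in KO, against 63.2, 60.1, 52.1 and 73.1 CPM in WT replicates 1 to 4. Every KO library lay below every WT library, which held for 6.31% of all genes tested and for no other gene of the 27; KO lay wholly above WT for none of the 27 and for 2.59% of all genes. WT was 2.49 times KO (edgeR log2 fold change -1.32 with SE 0.28, 95% interval -1.95 to -0.69, adjusted p = 0.032). DESeq2 gave -1.34 with an adjusted p of 7.8e-06 and limma-voom -1.35 with an adjusted p of 0.014. In edgeR the call was lost, at a similar fold change, with library totals alone (-1.31, adjusted p = 0.055), without immunoglobulin and receptor rows (-1.25, adjusted p = 0.051), with no filter (-1.26, adjusted p = 0.085) and with a GC trend removed (-1.07, adjusted p = 0.16). The call was sensitive to single libraries: the edgeR adjusted p was 0.020 to 0.16 over the 10 fits that each left out 1 library, and it exceeded 0.05 in 7 of them, those without KO replicate 1, 2, 3, 5 or 6 or WT replicate 2 or 4. The log2 fold change kept its sign in all 10, at -1.40 to -1.15. Sc5d overlaps no other gene's exons and shares 0.411% of its 50-mers.

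The other late genes spanned a range of levels with overlapping groups. Cyp51, which demethylates lanosterol, had 17.97, 29.2 and 43.9 CPM as lowest, median and highest in KO, against 15.2, 22.3, 54.8 and 28.2 CPM in WT. The WT values spanned the whole KO range (edgeR log2 fold change -0.07 with SE 0.43, adjusted p = 0.95). Msmo1 and Nsdhl act in the removal of methyl groups from the ring. Msmo1 averaged 44.96 ± 14.9 CPM in KO (SD, n = 6) and 64.0 ± 23.1 CPM in WT (SD, n = 4; edgeR log2 fold change -0.51 with SE 0.35, adjusted p = 0.48). Nsdhl averaged 20.2 ± 6.09 CPM in KO and 26.5 ± 6.14 CPM in WT, with all 6 KO libraries below the WT median. Hsd17b7, the keto-reductase of the same step, had 0, 4.82 and 15.4 CPM as lowest, median and highest in KO, against 22.5, 12.5, 10.3 and 16.3 CPM in WT (edgeR log2 fold change -1.48 with SE 1.09, adjusted p = 0.51). The highest KO library exceeded WT replicates 2 and 3, and the 0 in KO replicate 2 allows up to 0.0637 CPM at 3 counts.

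Ebp, which shifts the sterol double bond, was abundant and even, with means of 153 ± 29.1 CPM in KO and 162 ± 38.8 CPM in WT. Dhcr7, the final reductase, had 92.3, 127 and 204 CPM as lowest, median and highest in KO, against 175, 144, 96.5 and 109.5 CPM in WT, with every WT library inside the KO range. The 95% interval of the log2 fold change was -0.64 to 0.47 for Ebp and -0.60 to 0.66 for Dhcr7, the narrowest among these late genes beside that of Sc5d. Tm7sf2, a sterol reductase, had 21.7, 32.4 and 47.2 CPM in KO, against 62.3, 11.2, 20.0 and 5.38 CPM in WT, with WT libraries on both sides of the KO range. Vps51 shares 47.2% of the Tm7sf2 exons on the same strand, so its count is uncertain.

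Srebf1, Scap and Insig1, 3 of the 5 sterol-sensing genes, had the highest fold changes of the 27, none passed the test, and their WT libraries differed widely. Srebf1 (chr11:60199089-60222581, minus strand) encodes the SREBP factors best known for fatty acid genes. It had 99.6, 233 and 409 CPM as lowest, median and highest in KO, against 54.2, 14.6, 192 and 20.1 CPM in WT replicates 1 to 4. WT replicate 3 lay within the KO range and the other 3 WT libraries below it (edgeR log2 fold change 1.69 with SE 0.73, 95% interval 0.08 to 3.29, adjusted p = 0.26). Srebf2 (chr15:82147181-82205379, plus strand) encodes the main factor for cholesterol genes. It had 242, 405 and 465 CPM in KO, against 194, 105, 612 and 111 CPM in WT, so that WT replicate 3 exceeded all KO libraries and the other 3 were below all of them (edgeR log2 fold change 0.58 with SE 0.49, adjusted p = 0.57). Without WT replicate 3, edgeR gave 2.94 for Srebf1 (adjusted p = 0.030) and 1.49 for Srebf2 (adjusted p = 0.033). Each was called in only 1 of the 10 fits that left out 1 library. Without WT replicate 4 the edgeR adjusted p was 0.53 for Srebf1 and 0.86 for Srebf2. With receptor complex scaling the log2 fold change of Srebf2 was -0.49.

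Scap (chr9:110333288-110384950, plus strand), the escort of the SREBP factors, had 56.4, 93.2 and 173 CPM in KO, against 53.2, 7.27, 56.8 and 8.37 CPM in WT. The groups touched only at the lowest KO library and WT replicate 3 (edgeR log2 fold change 1.68 with SE 0.65, 95% interval 0.24 to 3.11, adjusted p = 0.21; DESeq2 adjusted p = 0.058). A gene model on the opposite strand overlaps 13.2% of the Scap exon bases, which counting without strand cannot separate. The 2 INSIG genes, whose products retain SCAP, had fold changes of opposite sign. Insig1, itself an SREBP target, had 4.14, 15.7 and 27.3 CPM in KO, against 15.3, 0.228, 4.21 and 0.761 CPM in WT (edgeR log2 fold change 1.54 with SE 1.03, adjusted p = 0.46). WT replicates 1 and 3 lay within the KO range of Insig1 and replicates 2 and 4 below it. Insig2 (chr1:121304353-121332589, minus strand) had 29.3, 37.3 and 41.9 CPM in KO, against 69.95, 75.1, 41.7 and 62.5 CPM in WT. Insig2 overlapped between the groups at WT replicate 3 and the upper KO libraries, and its edgeR log2 fold change was -0.78 (SE 0.27, 95% interval -1.38 to -0.18, adjusted p = 0.17; DESeq2 adjusted p = 0.012). The difference between the fold changes of the INSIG genes was not tested.

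**Figure D3:**
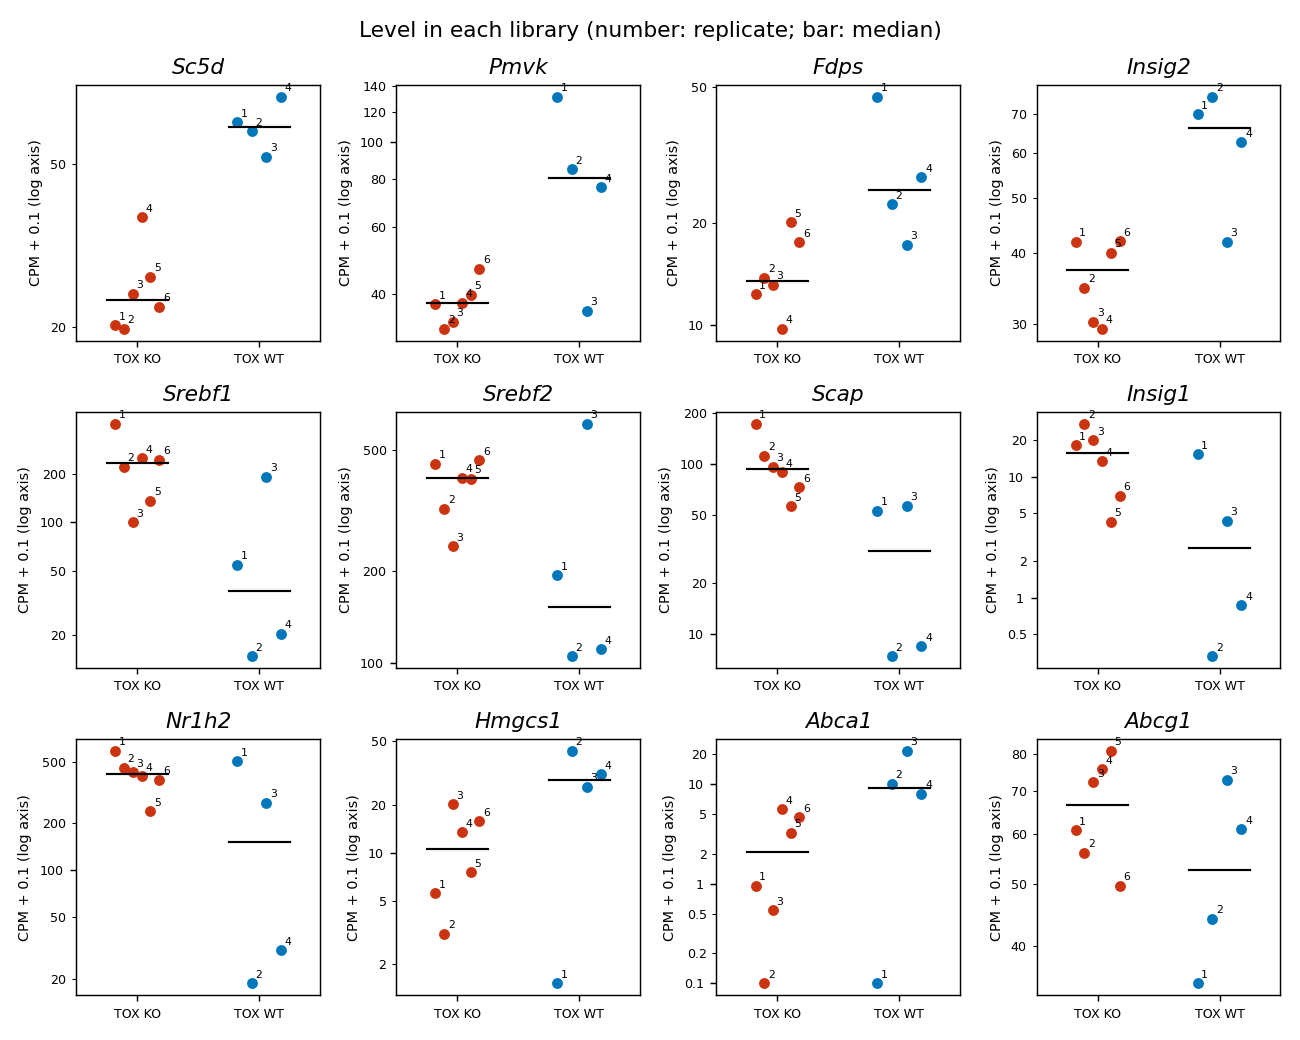
Level in each library for 12 of the genes, as CPM plus 0.1 on a log axis, with KO left of WT; the number beside a point is the replicate and the bar is the median. KO and WT are fully separated for Sc5d, while WT replicate 3 lies at or within the KO range for Pmvk, Insig2 and Srebf1, and WT replicate 1 is the lowest point for Hmgcs1 and equals the lowest for Abca1.

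The 4 genes of sterol transport and export showed no change that passed the test. Stard4, a cytosolic sterol carrier, had 2.89, 16.8 and 34.5 CPM as lowest, median and highest in KO, against 6.57, 31.6, 19.2 and 34.3 CPM in WT, all within the KO range (edgeR log2 fold change -0.43 with SE 0.65, adjusted p = 0.77). Abca1, an exporter to apolipoproteins and an LXR target, had 0, 1.99 and 5.48 CPM as lowest, median and highest in KO, against 0, 9.93, 21.3 and 7.83 CPM in WT. WT replicates 2 to 4 were above all KO libraries, and WT replicate 1 was at 0 (edgeR log2 fold change -2.02 with SE 1.53, adjusted p = 0.52). Abcg1, another LXR-driven exporter, had 49.6, 66.4 and 80.7 CPM in KO, against 34.9, 44.0, 72.8 and 60.9 CPM in WT. WT replicates 1 and 2 lay below all KO libraries and replicates 3 and 4 within their range (edgeR log2 fold change 0.31 with SE 0.29, 95% interval -0.34 to 0.95, adjusted p = 0.62), and with receptor complex scaling the fold change was -0.63. Nr1h2 (chr7:44549616-44553951, minus strand) encodes LXR-beta. It had 240.2, 416 and 587 CPM in KO, against 502, 18.6, 272 and 30.4 CPM in WT, where 2 libraries were within the KO range and 2 far below it (edgeR log2 fold change 1.02 with SE 0.78, adjusted p = 0.53).

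Per kilobase of exon, the genes ranked widely. In KO, Nr1h2 had a mean level of 124 CPM per kilobase, Ebp 66.1, Srebf2 53.1 and Srebf1 40.2. In WT, Ebp had 70.3 CPM per kilobase, Nr1h2 61.3, Pmvk 47.9 and Srebf2 35.6. The WT value of Nr1h2 rests on WT replicate 1, without which its mean level was 107 CPM, against 206 CPM over all 4 WT libraries. At the low end Idi1 had 0.092 CPM per kilobase in KO and 0.389 in WT, and Abca1 0.232 in KO and 0.942 in WT. Sc5d had 5.12 CPM per kilobase in KO and 12.8 in WT.

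The WT libraries varied more than the KO libraries for most of the 27. The SD of log2 CPM was larger in WT for 21 of 27 genes (77.8%), and for 66.7% of all genes tested. The ratio of the highest to the lowest library was 2.44 in KO and 27.01 in WT for Nr1h2, and 1.88 in KO and 1.40 in WT for Sc5d. Every KO library lay below the WT median for 10 of the 27 genes (37.0%; 27.1% of all genes tested), and above it for 7 (25.9%; 19.8% of all genes). WT replicates 2 and 4 were the lowest WT libraries for 8 genes (29.6%; 22.1% of all genes): Mvk, Sqle, Tm7sf2, Insig1, Srebf1, Srebf2, Scap and Nr1h2. WT replicate 1 was the lowest WT library for 10 genes (37.0%; 45.6% of all genes), among them Hmgcs1, Lss and Abca1.

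The fold changes ran with base composition. Across the 27 genes, the Spearman correlation of transcript GC percent with log2 fold change was 0.64, and across 11629 tested genes with a GC value it was 0.35; genes share the same 10 libraries and are not independent replicates. The 10 genes with positive fold changes had a median GC of 55.3%, and the 17 with negative ones 46.6%. Within a library, the gap in median log2 CPM between the 25% of genes highest and the 25% lowest in GC was 1.43 to 3.51 in KO libraries, against 2.67, -0.34, 0.78 and -0.13 in WT replicates 1 to 4. After a GC trend was removed from each library, edgeR put the log2 fold change of Sc5d at -1.07 (adjusted p = 0.16), Pmvk -1.63 (adjusted p = 0.042), Srebf1 0.80 (adjusted p = 0.52), Srebf2 0.05 (adjusted p = 0.98) and Scap 1.28 (adjusted p = 0.27). Sc5d lost its call and Pmvk gained one in that edgeR fit.

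**Figure D4:**
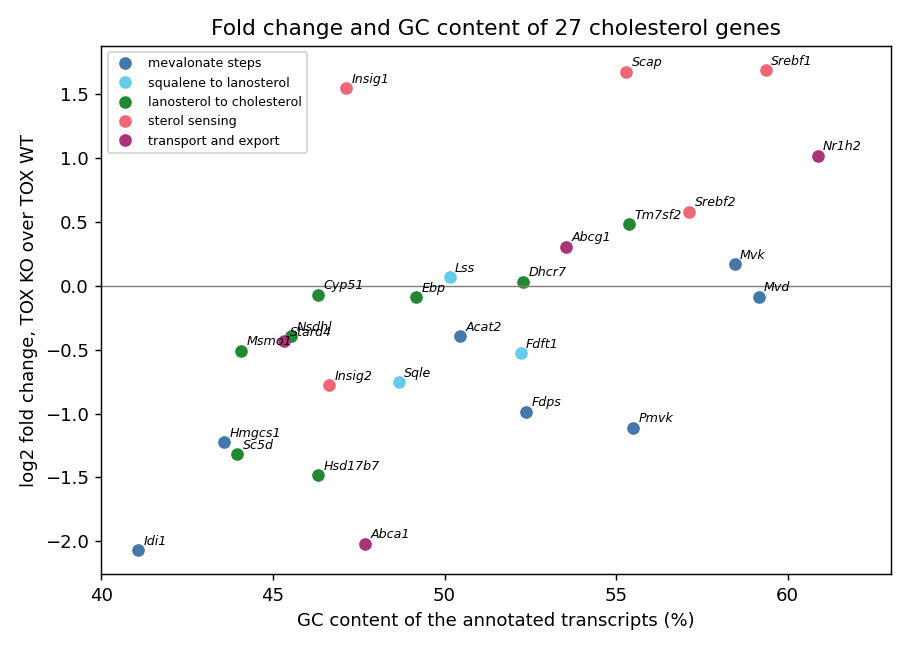
edgeR log2 fold change of KO over WT against transcript GC percent for the 27 genes, coloured by role. Of the genes above 54.7% GC, the limit of the highest 25% of all genes, 6 have positive values (Mvk, Tm7sf2, Srebf1, Srebf2, Scap and Nr1h2) and 2 negative ones (Pmvk and Mvd), and Sc5d, at 44.0% GC, lies among the negative ones.

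The library names fell into sets, numbers 1 to 3 (KO replicates 1 to 3 and WT replicate 1) and numbers 4 to 8 (KO replicates 4 to 6 and WT replicates 2 to 4). Whether the numbers mark a batch is not given in the sources used here. In edgeR, Sc5d was at -1.05 on the log2 scale within numbers 4 to 8 (adjusted p = 0.087) and at -1.53 within numbers 1 to 3, where WT is 1 library and is taken to vary like KO (adjusted p = 0.10). With the set as a term it was -1.27 (edgeR adjusted p = 0.026). Pmvk had -0.59 within numbers 4 to 8 and -1.89 within numbers 1 to 3. Fdps had -0.42 within numbers 4 to 8 and -1.81 within numbers 1 to 3. Hmgcs1 had -1.40 within numbers 4 to 8 and 2.78 within numbers 1 to 3, and none of these passed the edgeR test. Among KO libraries alone, Insig1 averaged 21.8 CPM in replicates 1 to 3 and 8.10 CPM in replicates 4 to 6, and Msmo1 averaged 32.6 CPM in replicates 1 to 3 and 57.3 CPM in replicates 4 to 6.

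The call among the 27 depended on how the counts were handled. Sc5d alone was called lower with RLE factors (background 2.8% of all genes), upper-quartile factors (2.9%), a mean of at least 1 CPM (3.76%), limma-voom (4.78%) and the library set as a term (2.78%), and Pmvk alone with the GC trend removed (3.42%). Scaling to the receptor complex genes called 6 lower, against 12.8% of all genes. None was called lower with library totals alone (background 2.6%), without immunoglobulin and receptor rows (1.57%), with no filter (1.39%), at an adjusted p under 0.01 (0.851%), within library numbers 4 to 8 (7.18%), within numbers 1 to 3 (0.524%) or without WT replicates 2 and 4 (0.333%). Nor was any called lower without KO replicate 1 (1.87%), 2 (1.87%), 3 (2.01%), 5 (2%) or 6 (2.35%), or without WT replicate 2 (1.51%) or 4 (0.977%). Sc5d alone was called without KO replicate 4 (2.06%) and without WT replicate 1 (7.9%).

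Without WT replicate 3, Sc5d and Pmvk were called lower (background 2.8%) and Srebf1 and Srebf2 higher (background 2.09%). In every other setting tried none of the 27 was called higher. The background of higher calls was 0.401% with RLE factors, 0.38% with upper-quartile factors, 0.436% with totals alone, 0.33% without immunoglobulin and receptor rows, 0.117% with receptor complex scaling, 0.152% with no filter, 0.721% at a mean of at least 1 CPM and 0.0492% at an adjusted p under 0.01. It was 1.44% with limma-voom, 0.378% with the GC trend removed, 0.816% with the set as a term, 0.00653% without WT replicates 2 and 4, 2.1% in the set of numbers 1 to 3 and 0.842% in the set of numbers 4 to 8. Leaving out KO replicates 1 to 6 in turn gave 0.178%, 0.179%, 0.272%, 0.304%, 0.286% and 0.28%, and leaving out WT replicates 1, 2 and 4 gave 2.92%, 0.0955% and 0.0683%.

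A further 66 genes of sterol and lipid handling were listed, and 57 were tested, with a median log2 fold change of -0.0032. None of the 5 tested genes of sterol synthesis outside the 27, the 10 of SREBP processing, the 10 of prenylation, or the 7 of esterification, oxysterols and LXR targets passed the test. Among 10 tested SREBP-1 fatty acid targets, Scd1, a stearoyl-CoA desaturase, was called lower in KO (edgeR log2 fold change -5.60 with SE 1.32, adjusted p = 0.049). It had 2.18, 5.31 and 8.47 CPM in KO, against 0.0242, 454, 305 and 282 CPM in WT, so WT replicates 2 to 4 were above and WT replicate 1 below every KO library. The WT replicate 1 value lies under the 3-count floor of 0.0725 CPM. Scd1 was called in 1 of 10 fits without 1 library, that without WT replicate 1.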

How the data were processed

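RNA of 10 sorted CD4 T cell libraries was amplified with SMART-seq v4 (12 cycles), made into libraries with 8 PCR cycles and sequenced as 50 base pairs, paired, per the labels' protocols. The authors deposited raw counts per gene name, obtained with featureCounts 1.6.2 from GENCODE M17 (GRCm38.p6) without a strand option and without reads that match several places, per the file headers. FastQC and STAR are named without versions in the submitters' processing notes. Exon length per gene was taken from the same deposited count tables.

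Counts were scaled with TMM factors and filtered with filterByExpr, and TOX KO was compared with TOX WT by edgeR 4.0.16's quasi-likelihood test (R 4.3.3) on the whole table, with Benjamini-Hochberg adjustment over 14214 genes and a threshold of 0.05. The SE was derived from the F statistic. DESeq2 1.42.0 and limma-voom (limma 3.58.1) were alternatives. GC percent came from GENCODE M21 transcripts, available for 81.8% of tested genes, and was fitted per library by lowess (span 0.3). The test was checked on simulated counts that gave KO and WT the same spread. That check therefore does not cover the wider spread among the WT libraries. The members, gene lists and rule for named genes were chosen with earlier results of these data known. Every member was named. Those called by edgeR or DESeq2, those without overlap, and 12 set by name were given with each WT library. For KO they were given as lowest, median and highest. Replicate numbers shared between groups correlated at 0.29, -0.25, -0.22 and 0.30 and were not taken as pairs. No pair of replicates was within sampling noise. A result among the further genes of sterol and lipid handling is not reported here.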

Additional observations from a re-analysis of the deposited data

Results flagged for a closer look

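Among 56 checked groups of libraries, KO and WT for each of the 27 genes and for Tox, 5 single libraries lay far from the rest of their group by Dixon's criterion on log2 CPM, and chance alone gives about 1 such group in 20. In KO replicate 2, Hsd17b7 was at -4.38 (0 counts) and Lss at 2.55 (5.80 CPM). In WT replicate 1, Hmgcs1 was at 0.56 (1.43 CPM), Lss at -3.37 (0.0483 CPM, 2 counts) and Abca1 at -4.38 (0 counts). Thus 3 of the 5 were in WT replicate 1, the library with 2554 tested genes at 0 counts.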

How the results depend on the processing

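The 27 genes were refitted under 27 alternatives, 2 of them (removal of a GC trend, and leaving out WT replicates 2 and 4, the libraries with the lowest GC gaps) chosen after seeing the data. The count called lower, 1, was 0 with library totals alone, without immunoglobulin and receptor rows, with no filter, at an adjusted p under 0.01, in either library set fitted alone, and when WT replicates 2 and 4 were left out. It was 4 with DESeq2 and 6 when libraries were scaled to the receptor complex genes (Pmvk, Fdps, Fdft1, Msmo1, Sc5d and Insig2), a scaling that moved the median of all genes to -0.93. The median of the 27, -0.39, became -1.22 with that scaling, -0.15 with the set as a term (all genes 0.022), -0.15 within numbers 4 to 8 (all genes -0.092), -0.040 within numbers 1 to 3 (all genes 0.37), -0.18 with the GC trend removed (all genes -0.13) and -0.062 without WT replicates 2 and 4 (all genes -0.048). Relative to all genes, the median of the 27 was -0.27 in the reported fit and -0.30 with receptor complex scaling. It was -0.34 with limma-voom and -0.41 within numbers 1 to 3. The same difference was -0.044 with the GC trend removed, -0.036 with DESeq2 and -0.038 with no filter. Within numbers 4 to 8 it was -0.055, and without WT replicates 2 and 4 it was -0.014.

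The replicate block by title number and the block by library number each left 0 of the 27 called and 0 genes called in either direction. The title block used replicates 1 to 4 and so left out KO replicates 5 and 6. In the library block, only numbers 2 and 6 occurred in both groups. Its fold changes thus rested on KO replicates 2 and 5 and WT replicates 1 and 3. With so few libraries left to measure variation, neither fit can show whether a call holds. Sc5d was at -1.35 with the title block (edgeR adjusted p = 0.22) and at -1.33 with the library block. Under the block by library number, fold changes turned to 0.30 for Acat2, -0.17 for Mvk, -0.32 for Tm7sf2, 0.10 for Nsdhl, 0.12 for Ebp, -0.091 for Dhcr7 and -0.16 for Nr1h2.

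Over all genes, 61 were higher and 384 lower. The counts higher and lower were 697 and 1600 with DESeq2, 204 and 680 with limma-voom, 7 and 121 at an adjusted p under 0.01, 17 and 1861 with receptor complex scaling, 121 and 1033 within numbers 4 to 8, 316 and 79 within numbers 1 to 3, and 1 and 51 without WT replicates 2 and 4. They were 219 lower without immunoglobulin and receptor rows, 39 higher with no filter and 116 higher with the set as a term. Leaving out each library in turn gave 0 to 2 of the 27 higher, 0 to 2 lower, a median of -0.46 to -0.11, 10 to 443 genes higher and 143 to 1201 lower.

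Fold changes that turned sign did not pass the test under the alternative or in the reported fit. Over the fits without 1 library, Mvd ran from -0.21 to 0.083, Lss from -0.34 to 0.33, Cyp51 from -0.29 to 0.40, Ebp from -0.24 to 0.077 and Dhcr7 from -0.085 to 0.20. Lss was -0.0057 with DESeq2, -0.023 with RLE factors and -0.10 with upper-quartile factors. Dhcr7 was -0.13 with upper-quartile factors and -0.0062 with totals alone, and Cyp51 0.012 with limma-voom. With the GC trend removed, Mvk was -0.58, Cyp51 0.25, Dhcr7 -0.12 and Stard4 0.053. With the set as a term, Cyp51 was 0.19, Dhcr7 -0.12 and Stard4 0.019. Within numbers 4 to 8, Cyp51 was 0.10 and Dhcr7 -0.043. Within numbers 1 to 3, Acat2 was 0.35, Hmgcs1 2.78, Mvk -0.83, Mvd 0.57, Cyp51 0.50, Tm7sf2 -0.60, Dhcr7 -0.087, Stard4 0.59 and Abca1 a fitted 7.28, and Idi1 was not tested. WT is there 1 library, in which Abca1 had 0 counts, so 7.28 is neither a measured fold nor a bound. With receptor complex scaling, Mvk was -0.46, Lss -0.92, Tm7sf2 -0.030, Dhcr7 -0.59, Srebf2 -0.49 and Abcg1 -0.63. Without WT replicates 2 and 4, Acat2 was 0.20, Mvk -0.40, Tm7sf2 -0.19, Ebp 0.069, Srebf2 -0.062 and Stard4 0.43. The causes were not tested. Idi1, Abca1 and Hsd17b7, each with a library at 0 counts, had the widest intervals.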
